A study of Mus musculus with 6 samples.

Results

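AW112010 is a long noncoding RNA of the mouse, and its RNA was followed here in osteal macrophages, which are resident on the surfaces of bone, from ovariectomized (OVX) mice and sham-operated mice. It was taken as all rows of the deposited table that carry its symbol, which is 1 gene (ENSMUSG00000075010) of the 11815 listed, with 2 of its 2 annotated transcripts. The gene was chosen on the same TPM values in OVX and sham libraries that are described below, so its levels, fold changes and transcript shares are given as a description and carry no test. TPM, a transcript's length-corrected share of all RNA in a library on a fixed scale, is the deposited unit.

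The OVX cells came from female BALB/c mice whose ovaries, the main source of estrogen, were removed at 10 weeks of age, an operation used as a model of the postmenopausal state. The sham cells came from sham-operated female BALB/c mice of the same age. In both groups osteal macrophages were sorted from femurs and vertebrae 4 weeks after surgery, by CD11b together with F4/80 or CD68, and total RNA was sequenced in 3 OVX and 3 sham libraries. The division of animals among libraries was not given in the sources used here, so the spread between libraries may be technical.

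Long noncoding RNAs are transcribed and processed like messenger RNA but hold no long open reading frame. AW112010 is known in the mouse for its induction in activated immune cells, among them macrophages exposed to interferon gamma or to ligands of Toll-like receptors. In mouse macrophages a short open reading frame of AW112010 that starts at a codon other than AUG is translated and bears on production of interleukin 12. In mouse T cells the RNA acts with the histone demethylase KDM5A to hold down the interleukin 10 gene.

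AW112010 lies on the minus strand of chromosome 19 at chr19:11047612-11055808 (GRCm38, GENCODE M21), spans 8197 bases and overlaps no other annotated gene. Its transcripts share exons 2 and 3 and differ in where they begin. AW112010-201 (ENSMUST00000099676, chr19:11047617-11050566) is 770 bases long and has a start supported by CAGE, a method that reads capped RNA ends. AW112010-202 (ENSMUST00000238097, chr19:11047612-11055808) is 625 bases long, begins 5242 bases further upstream and is annotated from RNA-seq alone. The first intron is 1995 bases in AW112010-201 and 7387 bases in AW112010-202. The transcripts have 591 bases in common, which leaves 179 bases found only in AW112010-201 and 34 found only in AW112010-202, so 76.8% of AW112010-201 and 94.6% of AW112010-202 is shared.

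**Figure D1:**
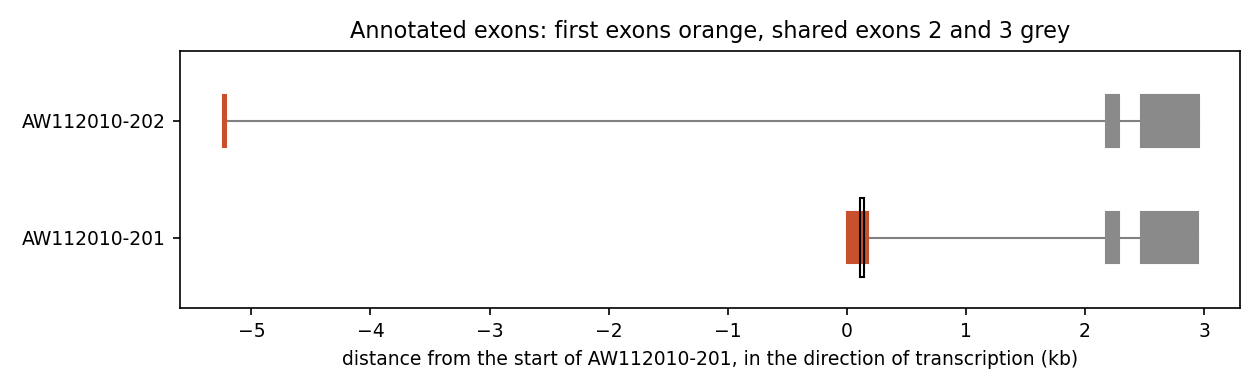
The horizontal axis is the distance in kb from the start of AW112010-201 in the direction of transcription, and each row is 1 annotated transcript, with first exons in orange, shared exons in grey and introns as lines. AW112010-202 begins 5242 bases upstream with an exon of 29 bases, and the black frame marks the 29 bases of AW112010-201 exon 1 of which 28 are identical to it.

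The first exons are printed because most of the bases found in only 1 of the transcripts, which had unlike OVX and sham values, lie in them. Exon 1 of AW112010-201 (chr19:11050388-11050566, minus strand) is shown whole, with capitals for the stretch that resembles exon 1 of AW112010-202. Next come that stretch on its own (chr19:11050425-11050453), exon 1 of AW112010-202 (chr19:11055780-11055808), with a capital at the only base that differs between them, and the first 21 bases of exon 2 (chr19:11048372-11048392), which follow either exon 1.
AW112010-201 exon 1: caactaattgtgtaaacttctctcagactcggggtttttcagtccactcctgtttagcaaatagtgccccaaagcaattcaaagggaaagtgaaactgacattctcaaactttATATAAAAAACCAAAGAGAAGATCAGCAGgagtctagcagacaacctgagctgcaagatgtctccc
AW112010-201 stretch: atataaaaaAccaaagagaagatcagcag
AW112010-202 exon 1: atataaaaaCccaaagagaagatcagcag
exon 2, first bases: atccctctgatatttatcttt

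Of the 29 bases of AW112010-202 exon 1, 28 were identical to bases 114 to 142 of AW112010-201. The single difference is A10C, with the base of AW112010-201 first and positions counted from the first base of AW112010-202 exon 1. The next best alignment without gaps within AW112010-201 exon 1 had 14 identical bases, and no other transcript of GENCODE M21 holds either 29-base sequence. In AW112010-201 the stretch is followed by 37 more bases before exon 2. The remaining 5 bases of AW112010-202 alone lie at its 3′ end, in capitals in the last bases of the transcripts, which have the polyadenylation signal AATAAA in common.
AW112010-201 end: tcacataataaatttcgattgtgca
AW112010-202 end: tcacataataaatttcgattgtgcaCTTGA

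The table of promoter sequences from RefSeq (GRCm38.p6) holds the start of AW112010-201, from 250 bases before it to 50 bases after it (chr19:11050517-11050816, minus strand). It is printed because the factors that act downstream of Toll-like receptors and interferon gamma bind short motifs in promoters, and capitals mark the only match found to the 5 motifs searched on both strands.
AW112010-201 promoter: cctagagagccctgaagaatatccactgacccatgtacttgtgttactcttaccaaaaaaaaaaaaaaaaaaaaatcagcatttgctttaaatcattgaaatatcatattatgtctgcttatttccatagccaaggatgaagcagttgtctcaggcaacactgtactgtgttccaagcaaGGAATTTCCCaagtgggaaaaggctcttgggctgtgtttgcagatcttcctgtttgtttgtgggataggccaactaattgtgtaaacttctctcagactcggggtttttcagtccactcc

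The match is to the NF-kB consensus, on the opposite strand, at position -70 from the start, and 4.51% of 32851 promoters of the same length hold this motif. No match was found to the interferon-stimulated response element (in 0.17% of promoters), the AP-1 motif TGANTCA (7.81%), the PU.1 core GAGGAAGT (3.2%) or the full palindromic estrogen response element (0.04%). Past the window, exon 1 of AW112010-201, searched for the same motifs, has 1 match, to the interferon-stimulated response element, at bases 84 to 97 on the strand of the RNA. Of 134938 annotated transcripts 0.06% hold that motif within as many bases from their start. These are matches of letters in short stretches and do not say where a factor binds. The sequence before the start of AW112010-202 was not analysed here.

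AW112010 was higher in every OVX library than in every sham library, and nearly all of the difference was in AW112010-202. The summed TPM of both transcripts, as deposited, was 273, 258 and 234 in OVX replicates 1, 2 and 3 and 147, 148 and 144 in sham replicates 1, 2 and 3. The groups were far apart beside the spread within them, with means of 255 ± 19.8 TPM in OVX against 146 ± 1.73 TPM in sham (SD, n = 3 each), a ratio of 1.74. In sorted cells measured in bulk, more cells that make a transcript and more of it per cell cannot be told apart.

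The libraries differed in how much of the TPM scale the listed transcripts held. That share was 66.31% in OVX replicate 3 and between 80.53% and 82.97% in the other 5 libraries, so OVX replicate 3 stood apart. Values were therefore also divided by a library factor, between 0.8414 for OVX replicate 3 and 1.141 for sham replicate 3, that centres the fold changes of most genes on 0, and are called scaled TPM. On this scale AW112010 was at 273, 256 and 278 in OVX, against 140, 148 and 126 in sham. The means were 269 ± 11.4 scaled TPM in OVX against 138 ± 11.1 scaled TPM in sham (SD, n = 3 each), a ratio of 1.94. The log2 fold change of OVX over sham was 0.96 on log2(scaled TPM + 1), with an SE of 0.08 from the gene's own libraries and of 0.13 in the limma fit over all genes, and 0.79 ± 0.07 (own SE) on the TPM as deposited. OVX replicate 3 had the lowest OVX value before scaling and the highest after it, and lay above all sham libraries both times. Without it the log2 fold change was 0.93.

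AW112010-202, the transcript with the upstream start, was at 241, 222 and 189.95 TPM in OVX, against 113, 112 and 111 TPM in sham. The coefficient of variation was 11.8% in OVX and 0.917% in sham on this scale. After scaling it was at 241, 221 and 226 in OVX, against 108, 113 and 97.4 in sham, with a coefficient of variation of 4.61% in OVX and 7.57% in sham, so which group spread more depends on the scaling. The means were 229 ± 10.6 scaled TPM in OVX against 106 ± 8.04 scaled TPM in sham (SD, n = 3 each), a ratio of 2.16 and a log2 fold change of 1.10 ± 0.07 (SE of its own libraries).

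AW112010-201, the transcript with the CAGE-supported start, was at 32.2, 35.3 and 43.7 TPM in OVX, against 33.5, 35.2 and 33.1 TPM in sham. The groups overlapped, with OVX replicate 1 below the sham libraries, OVX replicate 2 just above them and OVX replicate 3 the highest. After scaling it was at 32.3, 35.1 and 51.9 in OVX, against 32.1, 35.4 and 29.1 in sham, with means of 39.7 ± 10.6 scaled TPM in OVX against 32.2 ± 3.17 scaled TPM in sham. Its log2 fold change of 0.27 ± 0.22 (SE of its own libraries) was 0.07 without OVX replicate 3, and OVX replicates 1 and 2 lay within the sham range.

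**Figure D2:**
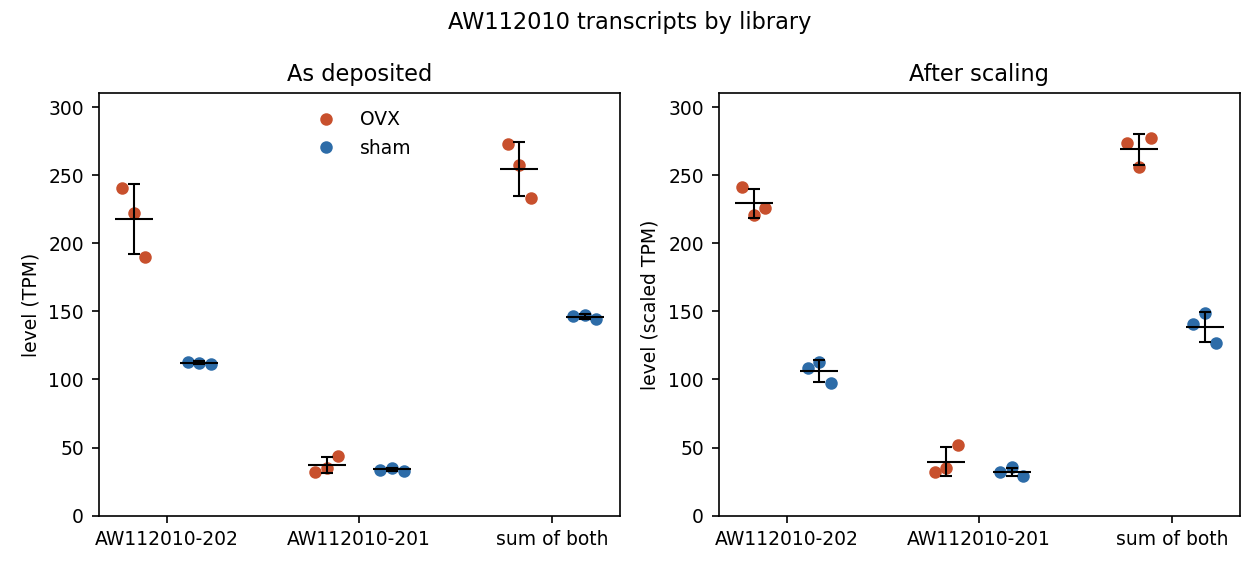
Points are libraries, OVX in orange on the left and sham in blue on the right of each pair, with the mean and SD in black (n = 3 each); the vertical axes are TPM as deposited and scaled TPM. AW112010-202 lay between 189.95 and 241 TPM in OVX and between 111 and 113 TPM in sham, while the ranges of AW112010-201 overlapped.

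AW112010-202 accounted for 97.1% of the difference in summed TPM between OVX and sham means, and for 94.2% of that in scaled TPM. Its share of the gene's TPM was 88.2%, 86.3% and 81.3% in OVX against 77.2%, 76.2% and 77.0% in sham. The shares did not overlap, with means of 85.3% ± 3.56 in OVX against 76.8% ± 0.538 in sham (SD, n = 3 each), a difference of 8.49 percentage points. The ratio of AW112010-202 to AW112010-201 was 7.48, 6.29 and 4.35 in OVX against 3.38, 3.20 and 3.35 in sham. Shares and ratios do not depend on the scaling of libraries.

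A difference in share of this size was not rare. Of 2050 genes with 2 or more listed transcripts and an average level of 10 scaled TPM or more, 476 (23.2%) had a difference at least as large in the share of their main transcript, and the median was 3.56 points. The main transcript's share was higher in all OVX than in all sham libraries for 131 of them (6.39%) and lower for 87 (4.24%). The way TPM were divided between transcripts with 591 bases in common was not given in the sources used here, and the effect of that step on the shares was not tested.

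AW112010 was an abundant RNA among those listed. It had rank 345 of 11815 genes by mean scaled TPM in OVX and rank 549 in sham. Among 307 listed long noncoding genes it was second to Malat1 in OVX and had rank 6 in sham. Malat1, a nuclear RNA of most cell types, averaged 2263 scaled TPM in OVX cells against 2046 in sham cells. Next to AW112010 over all libraries stood Snhg15, a small nucleolar RNA host gene, at 213 ± 23.0 scaled TPM in OVX cells against 226 ± 29.3 in sham cells, and Gas5, another such host gene, at 223 ± 70.2 in OVX cells against 140 ± 24.0 in sham cells. Every Snhg15 value lay below those of AW112010 in OVX and above them in sham. The Gas5 and AW112010 values overlapped in OVX, and likewise in sham, where the order of the genes is within their spread.

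Among the 8184 genes tested, those averaging 1 scaled TPM or more over the libraries, all 3 OVX libraries lay above all 3 sham libraries for 607 (7.42%) and below them for 638 (7.8%). AW112010 was one of the 607, which says nothing further, since it was chosen on this contrast. By log2 fold change it had rank 43 of 8184, rank 4 of 708 genes averaging 100 scaled TPM or more, and rank 1 of 128 long noncoding genes tested. That first rank is a tie with 2900076A07Rik, at a log2 fold change of 0.95 ± 0.61 (limma SE) and with groups that overlapped, and over the alternative settings and the libraries left out the rank of AW112010 among long noncoding genes was 1 to 5. For the 11907 transcripts tested the shares were 6.58% above and 6.8% below, and AW112010-202, one of those above, had rank 225 of them by log2 fold change and rank 4 of 714 with a mean of at least 100. With limma and Benjamini-Hochberg adjustment over all genes, 1 gene was called higher in OVX (0.0122%) and 0 were called lower (0%) at an adjusted p of 0.05, while an unadjusted p under 0.05 was reached by 283 with OVX above sham and 280 with OVX below. The gene called was Gm10132, at 14.0 ± 3.79 scaled TPM in OVX cells against 0.149 ± 0.258 in sham cells (limma adjusted p = 0.0128), named for its call and not for a tie to AW112010, which was not among the calls. The call of Gm10132 was lost with the replicate block (limma adjusted p = 0.0951), with a pseudocount of 0.1 (0.266), with no filter on low values (0.0834), and in 4 of the 6 fits with 1 library left out (0.0583 to 0.14), those without OVX replicate 1 and without each sham replicate.

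The other long noncoding genes were mixed. Of the 127 tested besides AW112010, 82 had a log2 fold change above 0 and 45 below 0, and 14 (11.0%) had all OVX libraries above all sham libraries and 7 (5.51%) all below, where the background is 7.42% and 7.8%. Their median log2 fold change was 0.12, against -0.01 over all genes, but it was -0.01 on the TPM as deposited, with 61 above and 66 below 0, against -0.15 over all genes. None was called by limma in either direction. In a list of 53 well-known long noncoding RNAs, without AW112010, 38 were listed and 30 tested, of which 5 had OVX above sham in all libraries and 2 below, against 7.42% and 7.8% of all genes tested. Those above were Gas5, Mir22hg, Neat1, Mirg and Dleu2 and those below were Snhg17 and Pvt1, all named after their values were seen.

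Neat1, the RNA scaffold of nuclear paraspeckles, was at 17.6, 18.6 and 30.4 scaled TPM in OVX, against 10.8, 13.5 and 10.6 in sham cells, a log2 fold change of 0.84 ± 0.23 (limma SE, as for the genes below, adjusted p = 0.568). Mir22hg, the host gene of miR-22, was at 62.9, 49.4 and 70.7 scaled TPM in OVX, against 40.3, 41.3 and 43.1 in sham cells, a log2 fold change of 0.53 ± 0.16 (limma adjusted p = 0.663). On scaled TPM, OVX replicate 3 was the highest library for Gas5, Neat1 and Mir22hg, as it was by a small margin for AW112010. This order depends on the scaling, since on the TPM as deposited OVX replicate 3 was the lowest OVX library of AW112010, at 234.

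**Figure D3:**
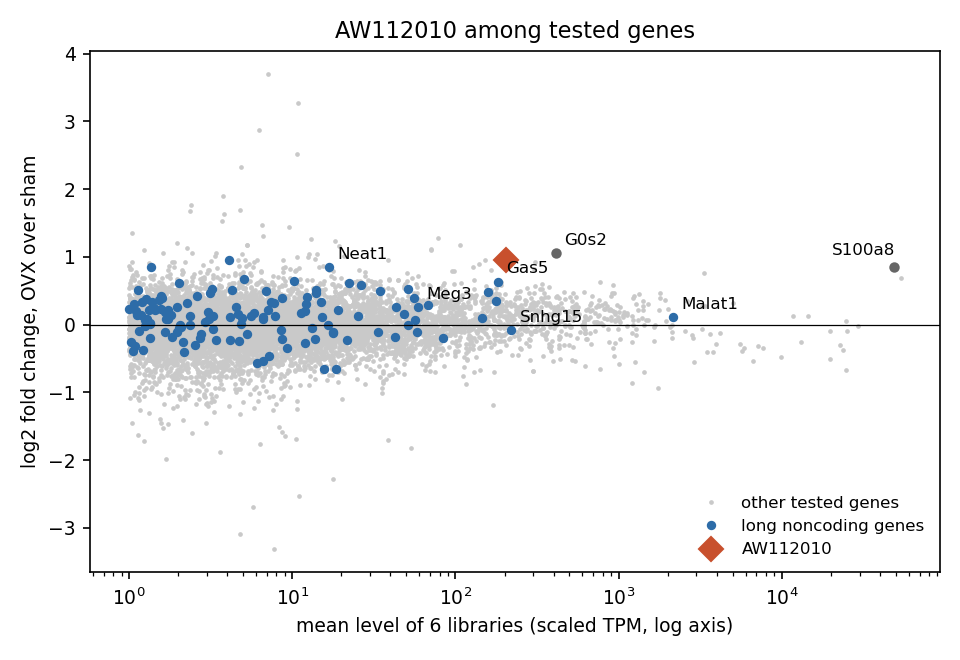
Each point is 1 of 8184 tested genes, with its mean level in scaled TPM on a log axis and its log2 fold change of OVX over sham on the vertical axis; long noncoding genes are blue and AW112010 is the orange diamond. AW112010, at 0.96, and 2900076A07Rik, at 0.95 and a far lower level, tie for the highest of 128 long noncoding genes, and at a mean of 100 scaled TPM or more 3 genes lie above it.

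Genes of the signals that are known to induce AW112010 lay on both sides of 0 in OVX over sham, and limma called none of them. Interferon gamma acts through the receptor subunits Ifngr1 and Ifngr2 and the kinases Jak1 and Jak2. Of 10 genes of this receptor and signalling list 9 were listed and 8 tested, 4 with a log2 fold change above 0 and 4 below, with a median of -0.07, and limma called 0 of them. On the TPM as deposited, where over all genes tested 2477 lay above 0 and 5707 below with a median of -0.15, this list had 1 above and 7 below with a median of -0.22. Ifngr2 was the only one of the 8 whose groups did not overlap, where 7.42% of all genes tested lay above and 7.8% below, at 10.8 ± 0.876 scaled TPM in OVX cells against 16.99 ± 1.95 in sham cells, a log2 fold change of -0.61 ± 0.15 (SE, limma adjusted p = 0.521). Ifngr1 was at 7.58 ± 3.28 scaled TPM in OVX cells against 9.67 ± 1.51 in sham cells, Jak1 at 14.2 ± 2.28 in OVX cells against 12.7 ± 0.608 in sham cells, and Irf1, a factor induced by interferon gamma, at 7.63 ± 3.11 in OVX cells against 9.48 ± 1.51 in sham cells.

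Of 36 genes induced by interferon gamma, 20 were listed and 16 tested, 6 with a log2 fold change above 0 and 10 below, and limma called 0. Their median was -0.27, against -0.01 over all genes tested, and 1 had all OVX libraries above all sham libraries and 5 all below, where over all genes tested 7.42% lay above and 7.8% below. The median was -0.14 with a pseudocount of 5, -0.09 without OVX replicate 3 and -0.18 without sham replicate 2, and on the TPM as deposited it was -0.40, with 3 above and 13 below. B2m, the light chain of class I major histocompatibility complexes, was at 759 ± 36.2 scaled TPM in OVX cells against 747 ± 65.0 in sham cells. The class I heavy chain gene H2-D1 was at 346 ± 138 in OVX cells against 409 ± 42.9 in sham cells, and H2-K1, another one, at 189 ± 46.2 in OVX cells against 253 ± 3.29 in sham cells, a log2 fold change of -0.45 ± 0.20 (SE, limma adjusted p = 0.706). Psme2, a proteasome activator subunit, was at 99.5 ± 34 in OVX cells against 90.7 ± 9.10 in sham cells, and Nos2, the inducible nitric oxide synthase of activated macrophages, at 44.4 ± 12.6 in OVX cells against 60.0 ± 7.12 in sham cells. The genes with OVX below sham in all libraries were H2-K1, Nos2, Tapbp, Tap2 and Gbp2, and the gene above was Cd274, at 4.65 ± 0.873 in OVX cells against 3.39 ± 0.305 in sham cells; Tapbp, Tap2, Gbp2 and Cd274 were named after their values were seen.

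Type I interferons share part of this program. Of 39 genes of their receptor and response 22 were listed and 15 tested, 6 above 0 and 9 below, with a median log2 fold change of -0.04, and limma called 0. On the TPM as deposited 4 lay above 0 and 11 below. Ifitm3, a membrane protein that restricts virus entry, was at 1108 ± 104 scaled TPM in OVX cells against 1325 ± 111 in sham cells, and Ifitm2 of the same family at 499 ± 55.6 in OVX cells against 511 ± 36.7 in sham cells. Ifitm1 lay the other way, at 103 ± 21.6 in OVX cells against 72.7 ± 1.06 in sham cells, a log2 fold change of 0.47 ± 0.18 (SE, limma adjusted p = 0.693). The receptor gene Ifnar2 was at 51.4 ± 14.0 in OVX cells against 51.0 ± 4.12 in sham cells.

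Of 27 genes of the response to the lipopolysaccharide receptor TLR4 and to NF-kB, 22 were listed and 20 tested, 9 above 0 and 11 below, with a median log2 fold change of -0.06, and limma called 0. On the TPM as deposited 6 lay above 0 and 14 below. All OVX libraries lay above all sham libraries for 2 and below them for 4 (Cxcl2, Nfkbia, Nfkbiz and Irak4), where over all genes tested the shares were 7.42% and 7.8%. Ccl2, a chemokine that draws monocytes, was at 6471 ± 2625 scaled TPM in OVX cells against 7740 ± 971 in sham cells, and Cxcl2, which draws neutrophils, at 3039 ± 642 in OVX cells against 3946 ± 67.3 in sham cells. Nfkbia, the inhibitor that NF-kB itself induces, was at 1050 ± 370 in OVX cells against 1461 ± 60.4 in sham cells. The coreceptor gene Cd14 was at 799 ± 188 in OVX cells against 711 ± 52.7 in sham cells. Ccl3, another chemokine gene and next in level, was at 187 ± 43.5 in OVX cells against 141 ± 17.2 in sham cells, with overlap. Tlr4 was at 2.96 ± 0.523 in OVX cells against 2.14 ± 0.0268 in sham cells, with no overlap (limma adjusted p = 0.726). Il1rn, the interleukin 1 receptor antagonist, was the other gene with all OVX libraries above all sham libraries, at 67.2 ± 7.44 in OVX cells against 41.2 ± 3.52 in sham cells, a log2 fold change of 0.69 ± 0.15 (SE, limma adjusted p = 0.41), and like Nfkbiz and Irak4 was named after its values were seen.

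Little of the pathway in which AW112010 is known to act was in the table. Of 15 genes of the interleukin 12 and interleukin 10 axis 3 were listed and tested, and limma called 0. Kdm5a was at 3.79 ± 0.581 scaled TPM in OVX cells against 3.58 ± 0.642 in sham cells, Stat3, which relays interleukin 10, at 8.58 ± 0.254 in OVX cells against 9.23 ± 0.874 in sham cells, and the receptor subunit gene Il10rb at 11.5 ± 2.28 in OVX cells against 10.04 ± 1.201 in sham cells. The groups overlapped for each of these.

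**Figure D4:**
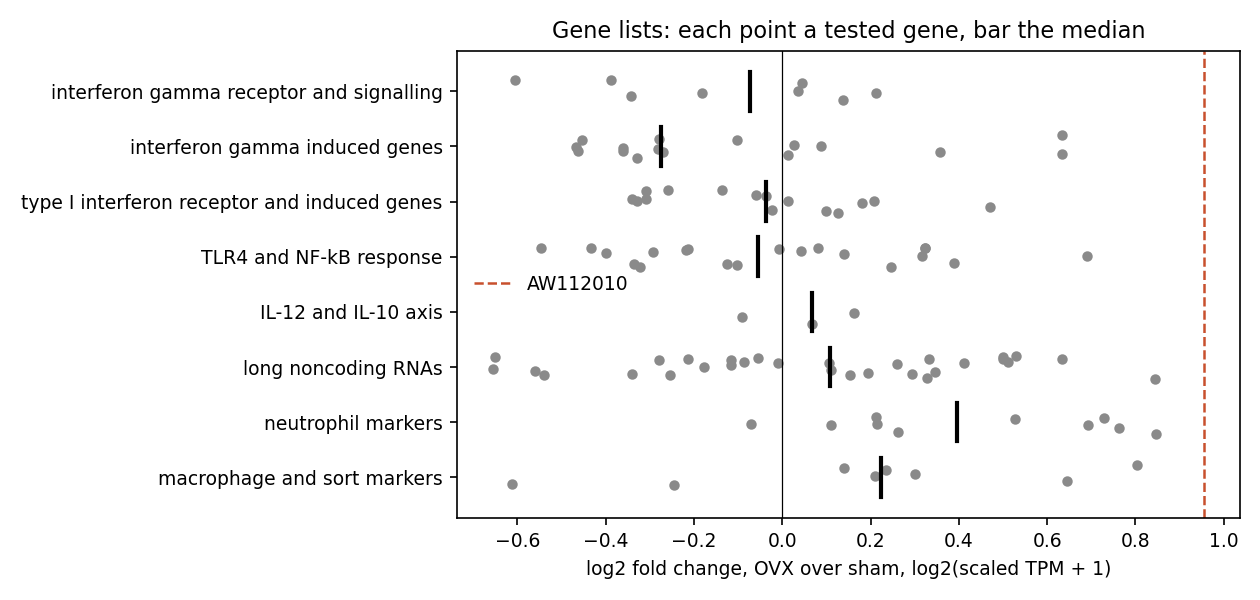
Each point is 1 tested gene of a list, placed by its log2 fold change of OVX over sham on log2(scaled TPM + 1), black bars are medians, and the dashed orange line is AW112010 at 0.96. The genes of the 4 interferon and TLR4 lists lie on both sides of 0, with medians of -0.07, -0.27, -0.04 and -0.06, where the median over all genes tested was -0.01.

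The table also held markers of other cell types that a sort can carry over. For T and NK cells, in which AW112010 is abundant in the mouse, the few markers listed were near 0. Of 27 markers 2 were listed, Thy1 and Cd28, and their sum was between 0.0594 and 0.311 scaled TPM in OVX and between 0.0402 and 0.473 in sham, while the other markers, among them the T cell receptor genes, were not analysed here. Of 18 neutrophil markers 11 were listed and 10 tested, 9 with a log2 fold change above 0, 4 with all OVX libraries above all sham libraries (S100a8, S100a9, Ngp and Mmp8, where 7.42% of all genes tested did) and 0 called. They summed to between 132004 and 141615 scaled TPM in OVX and between 69692 and 89327 in sham, which was nearly all S100a8 and S100a9, the calprotectin genes that are also made by activated macrophages. S100a8 had a log2 fold change of 0.85 ± 0.19 (SE, limma adjusted p = 0.466). Of the granule protein genes, Ngp was at 4290 ± 1472 in OVX cells against 2410 ± 35.6 in sham cells. Lcn2 was at 1462 ± 610 in OVX cells against 1170 ± 28.7 in sham cells. Ltf was at 106 ± 40.8 in OVX cells against 82.8 ± 4.83 in sham cells. Elane was at 6.27 ± 1.83 in OVX cells against 5.21 ± 1.05 in sham cells. Prtn3, the member below 0, was at 3.39 ± 1.22 in OVX cells against 3.69 ± 1.67 in sham cells. Mpo, too low to be tested, was at 0.85 ± 0.065 in OVX cells against 0.90 ± 0.539 in sham cells. The part of the neutrophil markers in the difference of AW112010 was not tested.

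Of 20 macrophage and sort markers 11 were listed and 8 tested, 6 with a log2 fold change above 0, 3 with OVX above sham in all libraries (Lgals3, Fcgr3 and Itgam) and 2 below (Ctss and Vcam1), against 7.42% and 7.8% of all genes tested, and limma called 0. They summed to between 1592 and 2082 scaled TPM in OVX and between 1567 and 1632 in sham, ranges that overlapped. Itgam, which encodes CD11b, was at 21.9 ± 5.52 in OVX cells against 11.9 ± 1.52 in sham cells, and Cd68 at 40.2 ± 3.47 in OVX cells against 34.6 ± 2.93 in sham cells. Adgre1, which encodes F4/80, was at 0.675 ± 0.322 in OVX cells against 0.878 ± 0.262 in sham cells, and Csf1r, a defining receptor of macrophages, was listed at 0 in all 6 libraries. Such a 0 can be a failed estimate, and 298 of 8184 tested genes were at 0 in at least 1 library. The part of Itgam-expressing cells in the difference of AW112010 was not tested. No B and plasma cell or erythroid marker was listed, so these cells could not be assessed. Which transcripts are listed does not follow from their TPM, since 2202 of the 23115 are at 0 in all libraries. Muscle markers summed to 199 ± 17.4 scaled TPM in OVX cells against 273 ± 12.7 in sham cells. Mitochondrially encoded genes summed to 63295 ± 8276 in OVX cells against 79328 ± 3930 in sham cells. Osteoblast and stromal markers summed to 20798 ± 4622 scaled TPM in OVX cells against 24374 ± 323 in sham cells, with overlap. This exceeds the macrophage marker sum, but a sum depends on which genes a list holds and which of them are listed. The sums therefore do not compare the amounts of RNA from the cell types. Dcn alone was at 12050 ± 2220 in OVX cells against 14261 ± 418 in sham cells. Of 17 such markers 13 were listed and 11 tested, 5 with a log2 fold change above 0 and 6 below, and limma called 0. The part of stromal RNA in the difference of AW112010 was not tested.

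Few genes around AW112010 were in the table, and a gene that is not listed has no value here rather than a low one. AW112010 lies within the cluster of Ms4a genes, which encode membrane proteins, and 9 Ms4a genes are annotated from 150 kb below it to 250 kb above it. Of 19 other annotated genes in this window 2 were listed, Ccdc86 and Prpf19, and none of the 18 genes of an Ms4a list was. The nearest annotated genes, Gm28347 at 9.98 kb below and Ms4a8a at 11.7 kb above, were not analysed here. The nearest listed gene on the lower side was Ccdc86, a nucleolar protein gene 98.3 kb away, at 5.32 scaled TPM in OVX cells against 5.95 in sham cells. The groups overlapped, between 4.60 and 5.90 in OVX and between 5.33 and 7.02 in sham. Prpf19, a splicing factor gene 138 kb away on the same side, was at 1.72, 1.501 and 1.53 scaled TPM in OVX, against 0.259, 1.31 and 0.631 in sham. All its OVX libraries lay above all sham libraries, as for 7.42% of all genes tested, at a low level and with a log2 fold change of 0.62 ± 0.25 (limma SE, adjusted p = 0.697). The nearest listed gene on the upper side was Mrpl16, a mitochondrial ribosome gene 715 kb away and outside the window, at 12.8 scaled TPM in OVX cells against 15.1 in sham cells. Its groups overlapped, between 8.03 and 17.1 in OVX and between 9.83 and 20.0 in sham.

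The genes whose pattern was most like that of AW112010 were found by Pearson's r of log2(scaled TPM + 1) over the 6 libraries, among the 3211 genes that averaged 10 scaled TPM or more. Since the OVX and sham libraries of AW112010 are apart, a high r mainly picks genes that are also apart, and the libraries are shared by all of these genes. The highest was Evi2a, a membrane protein gene within an intron of Nf1, at r = 0.989, with 18.2, 16.7 and 17.4 scaled TPM in OVX against 7.25, 9.40 and 7.41 in sham. G0s2, an inhibitor of fat breakdown, had r = 0.987, with 610, 524 and 534 in OVX against 250, 293 and 257 in sham. On scaled TPM, sham replicate 2 was the highest sham library and OVX replicate 2 the lowest OVX library in Evi2a, G0s2 and AW112010. On the TPM as deposited OVX replicate 3 was the lowest OVX library of AW112010, at 234.

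Cartilage and matrix genes were among the 10. Col10a1, the collagen of hypertrophic cartilage, had r = 0.988 and was at 33.0 ± 1.07 scaled TPM in OVX cells against 18.4 ± 1.92 in sham cells, Col2a1, the main cartilage collagen, had r = 0.987 and was at 120 ± 2.46 in OVX cells against 69.4 ± 1.41 in sham cells, and Col6a2, a collagen VI chain, had r = 0.984. Of 12 chondrocyte markers, which a macrophage sort would not be meant to hold, 12 were listed and 10 tested, 8 with a log2 fold change above 0, 6 with OVX above sham in all libraries and 2 below, against 7.42% and 7.8% of all genes tested, and limma called 0. The mean of their summed level lay the other way, at 1196 ± 220 scaled TPM in OVX cells against 1398 ± 84.4 in sham cells. The groups overlapped, with sums of 1356, 1286 and 945 in OVX replicates 1, 2 and 3 against 1356, 1343 and 1495 in sham. Chad and Comp make up most of the sum. Chad was at 454 ± 159 in OVX cells against 628 ± 64.3 in sham cells, and Comp at 367 ± 74.5 in OVX cells against 513 ± 33.1 in sham cells. The part of chondrocyte RNA in the difference of AW112010 was not tested.

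The other genes among the 10 were Ncf1, a subunit of the phagocyte NADPH oxidase (r = 0.987, 39.7 ± 0.948 scaled TPM in OVX cells against 25.8 ± 0.808 in sham cells), Slc38a2, an amino acid transporter (r = 0.986), Htatip2 (r = 0.986), Tut7, an enzyme that adds uridines to RNA (r = 0.983), and Gadd45a, a stress-induced growth arrest gene (r = 0.982, 209 ± 10.3 in OVX cells against 144 ± 1.68 in sham cells). In all, 33 genes had r above 0.95 and 0 had r above 0.99. On the TPM as deposited, 6 of the 10 were again among the first 10, with Col6a2 at an r of 0.66 and Slc38a2 at 0.875. By Spearman's rho 23 genes tied at 1, of which Slc38a2 was the only one of the 10.

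**Figure D5:**
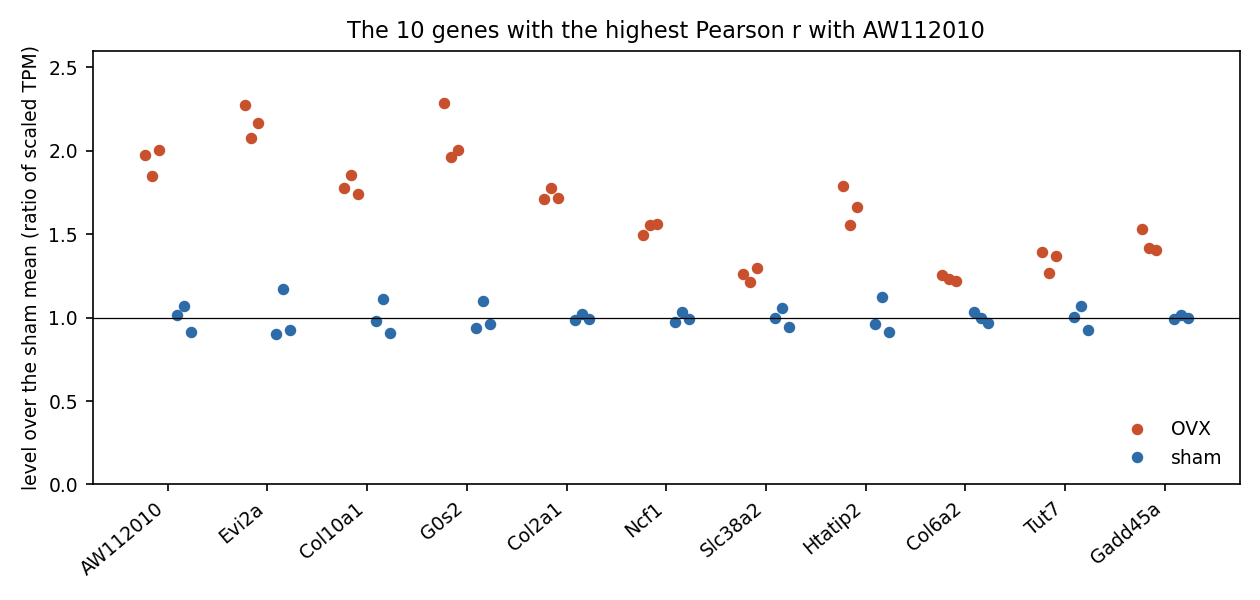
Each column is 1 gene, AW112010 first and then the 10 genes with the highest Pearson r, and points are libraries as a ratio to the gene's sham mean in scaled TPM, OVX in orange on the left and sham in blue on the right. AW112010 lay near 2 times its sham mean in OVX, with a ratio of means of 1.94, and in each of the 10 genes all OVX libraries lay above all sham libraries.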

How the data were processed

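RNA of osteal macrophages was measured in 3 OVX and 3 sham libraries, grouped by title. The authors deposited TPM per transcript. The submitters' notes name HISAT2 2.0.5 and featureCounts 1.5.0-p3, and the methods name trimming and mm10; how TPM were made was not given in the sources used here. Beside them the authors deposited columns of their own comparison (log2 fold change, p-value, mean level), which do not follow the TPM and were left out. TPM keep no depth, so no counting intervals are given, and a 0 can be a failed estimate.

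TPM were summed per gene and divided by an unweighted trimmed mean of M values (30% of M, 5% of A values trimmed). Fold changes are on log2(scaled TPM + 1), which understates those of low genes. Genes with a mean of at least 1 were tested with limma 3.58.1 (R 4.3.3, trend), adjusted by Benjamini-Hochberg. An exact permutation test of 3 against 3 cannot fall under 0.1, so none was run. Since nothing says that libraries came from separate animals, p-values reflect only how these samples vary, which may be technical. The fit was also run on simulated data, but its recovery is not given here. An absence of calls therefore does not show an absence of differences.

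The gene and the lists were chosen with earlier results of these data known. Named genes are the transcripts, the 10 most alike genes, up to 5 members per list by level plus receptors and factors, the nearest listed genes and long noncoding RNAs next in level. Alternatives covered scaling, pseudocount, filter, library weights, single transcripts, a replicate block and leaving out each library.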

Additional observations from a re-analysis of the deposited data

How the results depend on the processing

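The log2 fold change of AW112010 was 0.96, and was 0.79 on the TPM as deposited and 1.10 for AW112010-202 alone. Leaving out 1 library at a time gave 0.89 to 1.01, and the difference in the share of AW112010-202 was then 7.02 to 10.5 points. AW112010-202 had 0.94 on the TPM as deposited. Scaling moved the median of all genes, which was -0.01 on scaled TPM and -0.15 on the TPM as deposited. The median of the type I interferon list was -0.20 and that of the TLR4 list -0.21 on the TPM as deposited, and the TLR4 median was -0.12 with equal listed totals. Leaving out 1 library gave medians of -0.32 to -0.09 (without OVX replicate 3) for genes induced by interferon gamma, -0.12 to 0.01 for type I interferon and -0.058 to 0.031 for the TLR4 list, where the last 2 turn positive without sham replicate 3. For T and NK cells no gene was tested, so no median could be had.

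Genes called higher by limma numbered 1 (Gm10132), but 0 with a pseudocount of 0.1, with no filter on low values, for single transcripts and with the replicate block, and 20 with library weights. Genes called lower numbered 0, but 7 with library weights. Leaving out 1 library gave 0 to 7 called higher and 0 to 2 called lower, the highest counts without OVX replicate 3. Of list genes 0 were called, but 5 with library weights (Col2a1, Col10a1, Col11a1, Ngp and Il1rn) and 2 (Col2a1 and Ngp) without OVX replicate 3, 0 to 2 over the libraries left out. The cause of these changes was not tested. Samples with the same replicate number did not deviate together (r = -0.056, -0.127 and -0.251). Samples with unlike numbers had r between -0.145 and 0.198. With so few libraries per group this cannot exclude a shared day or batch, which was not given in the sources used here. With the replicate block the log2 fold change of AW112010 was 0.96 by construction, since each block holds 1 library of each group.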

Other observations

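Within the groups, the genes whose deviations from the group means followed those of AW112010 most closely were other ones: Mocs2 (r = 0.993), a molybdenum cofactor gene, Ccdc107 (0.989), 1500002C15Rik (0.987), the ribosomal protein gene Rps15 (0.985) and Papss2 (0.983), over the same 6 libraries and 3211 genes. These r were taken on scaled TPM only, and the order of the OVX libraries of AW112010 differs on the TPM as deposited. Rps15 was at 974, 925 and 996 scaled TPM in OVX, against 1040, 1116 and 895 in sham. Of the 10 genes most like AW112010 over all libraries, Slc38a2 (0.974) and Tut7 (0.969) also had a within-group r above 0.95, and Col2a1 had 0.114. With 6 libraries and the group means taken out, an r this high can arise by chance among 3211 genes. The share of all genes with a within-group r above 0.95 is not given here, so these values carry no test.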
